A study of Mus musculus with 10 samples.

Results

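The genes described here are 34 members of glycolysis and of the response to low oxygen, read in mouse esophageal epithelium of wild type and of mice with the protein kinases Mst1 and Mst2 deleted. They were taken from the deposited expression table by gene symbol, which gave 35 of its 56691 rows, because Aldoa is listed under 2 gene identifiers. The members hold the glucose and lactate transporters, the enzymes from hexokinase to lactate dehydrogenase, the PFKFB enzymes, pyruvate dehydrogenase with its kinases, and 6 genes of the hypoxia response. The study compared 5 libraries labelled WT with 5 libraries labelled Mst1/2 KO, whose genotype is p63CreERT2;Mst1loxp/loxp;Mst2-/-. Both groups had tamoxifen, 100 mg/kg in 3 doses given every 2 weeks, and the epithelium was taken at around 8 weeks. Tamoxifen activates the CreERT2 recombinase, here carried by an allele named for p63, a transcription factor of basal squamous cells, while the Mst2 allele is labelled as null, with no Cre. The labels do not say whether the WT mice carry the Cre allele, and the sources used here give no age for the mice. Whether each library came from its own mouse is not in the labels, and a p-value here speaks only of the spread among these 10 libraries.

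Glycolysis turns glucose into pyruvate in the cytosol, and lactate dehydrogenase then turns pyruvate into lactate, or pyruvate dehydrogenase passes it to the mitochondria. Oxygen controls many of these genes through the transcription factor HIF-1, whose alpha subunit is marked for destruction by prolyl hydroxylases (the EGLN proteins) while oxygen is present. Stratified squamous epithelium has no vessels of its own and is fed by diffusion from the tissue below, and keratinocytes are known for high glycolysis.

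Stk3, which encodes Mst2, was at 2.08 to 3.48 FPKM (fragments per kilobase of gene, scaled to sequencing depth) in the WT libraries and at 0.05 to 0.25 in the knockouts. Stk4, which encodes Mst1, was at 17.0 to 22.7 and 12.2 to 17.4, but the level of the whole gene is no check of a deletion of some of its exons. Estimated depth was 13070000 to 16440000 fragments per library. The 7 epithelial markers were expressed in all 10 libraries, with Krt13 at 33902 to 38781 FPKM. One of the 7, the basal-cell gene Trp63 (p63), fell by 41.9%, from 38.8 ± 5.46 to 22.6 ± 3.58 FPKM (SD, n = 5 each; limma adjusted p = 0.0029), without overlap, while Krt5, Krt14, Krt4, Krt13, Sox2 and Dsg3 did not pass the test. The Cre allele of the knockouts is named for p63, and any part of that allele in the level of Trp63 was not tested. The part of Trp63 in the differences of the other genes was not tested either. Of markers of other cell types, all 6 endothelial and all 6 smooth muscle genes stayed under 1 FPKM in each library. The 6 fibroblast genes summed to 4.44 to 13.6 FPKM in WT and 0.07 to 1.13 in knockout, without overlap, from Dcn alone: the other 5, the collagen genes Col1a1, Col1a2 and Col3a1 among them, were at 0 to 0.08 FPKM in every library. The 6 immune genes summed to 6.05 to 12.3 FPKM in WT and 9.02 to 17.5 in knockout, mostly from Cd68. Cd68 averaged 6.63 FPKM in WT and 11.45 in knockout, with overlap, and was not called (adjusted p = 0.079 in limma). The means of Ptprc, Cd3e and Cd207 were lower in knockout and those of Lyz2 and Adgre1 higher, all too low to test. In such bulk samples, fewer cells of a type and less RNA per cell cannot be told apart.

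Of the 34 genes, Hif1a rose in the knockout and Egln1, Pfkm and Eno1 fell, and the other 28 tested rows did not pass the test. The test was limma on log2(FPKM + 1) over the 11386 genes that reached 1 FPKM in 5 or more libraries, with Benjamini-Hochberg adjustment and a threshold of 0.05. It took in 32 of the 35 member rows and left out Slc2a3, Slc16a3 and the second Aldoa row, all 3 of which were too low. The 4 calls are 12.5% of the tested members, against 12.9% of all tested genes. By direction, 7.9% of all tested genes rose and 4.96% fell. The called share of the members is thus near the background and is no result about the members as a set. The groups did not overlap for 3 members, all lower in the knockout, or 9.38% of the members, against 10.5% of all tested genes in either direction and 3.88% that were lower. The median log2 fold change was 0.03 over the members and 0.06 over all tested genes, with member values from -0.65 to 0.49, and 18 members were positive and 14 negative. Fold changes on this scale understate the change of genes at low FPKM.

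**Figure D1:**
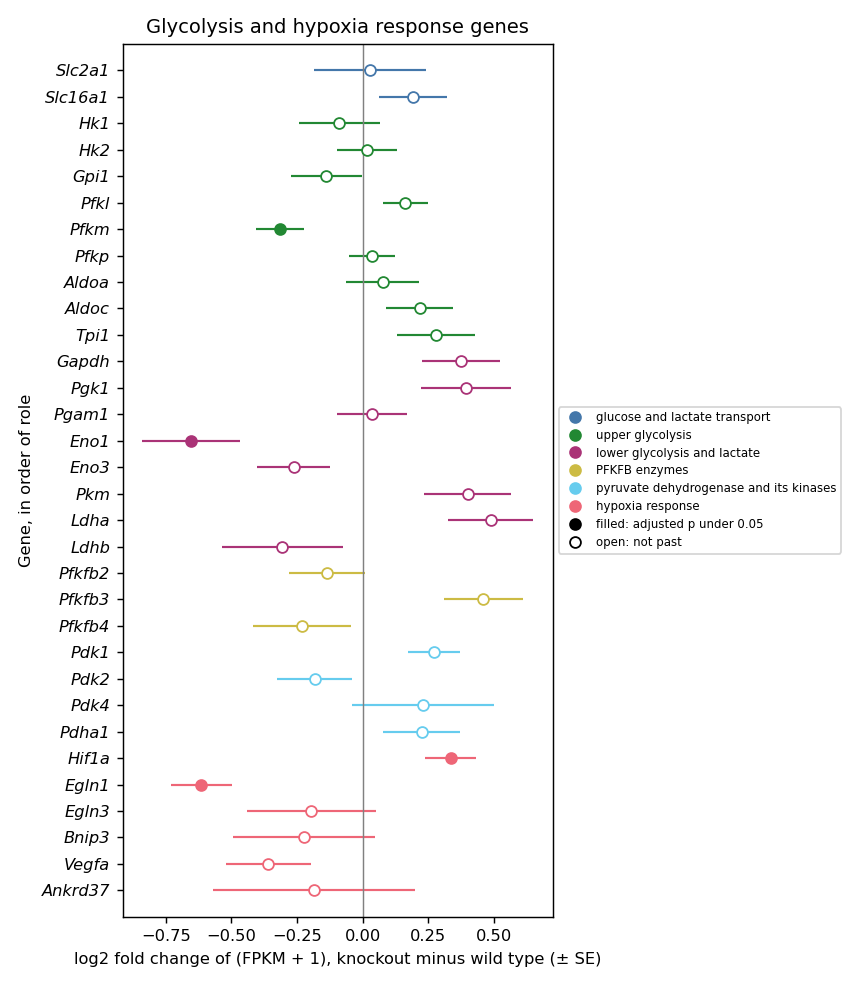
Log2 fold change of FPKM + 1, knockout minus wild type, on the x axis for the 32 tested rows in order of role, with bars of 1 standard error from limma. Filled points (Pfkm, Eno1, Hif1a, Egln1) are past an adjusted p of 0.05 and open points are not.

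In the oxygen-sensing genes, the RNA of the HIF-1 alpha subunit was higher in the knockout and that of 2 enzymes that restrain it was lower. The prolyl hydroxylase genes Egln2 and Egln3 did not pass the test. Hif1a was at 29.5, 31.1, 35.25, 29.1 and 28.5 FPKM in WT libraries 1 to 5 and at 43.5, 34.65, 40.2, 37.1 and 39.4 in knockout libraries 1 to 5. The groups overlapped only in that WT 3 lay just above KO 2. Hif1a rose by 27.1%, from 30.7 ± 2.74 to 39.0 ± 3.33 FPKM (SD, n = 5 each), a log2 fold change of 0.34 with an SE of 0.10 (limma adjusted p = 0.041). That call rests on a narrow margin: it was lost when any 1 of 7 libraries was left out (WT 1, WT 4, WT 5, KO 1, KO 3, KO 4 or KO 5), with adjusted p up to 0.104. It was also lost under median-ratio scaling, at a log2 fold change of 0.27 (adjusted p = 0.104), and under quantile normalization, at 0.25 (adjusted p = 0.0914). With the replicate number as a block, its adjusted p was 0.0732.

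Egln1 encodes PHD2, regarded as the main prolyl hydroxylase that sets HIF-1 alpha levels in normal oxygen. Its FPKM values were 51.25, 34.5, 37.05, 41.2 and 38.3 in WT libraries 1 to 5 and 28.7, 27.6, 23.45, 26.1 and 23.7 in knockout libraries 1 to 5. All 5 knockout libraries lay below all 5 WT libraries. The level fell by 35.9%, from 40.5 ± 6.49 to 25.9 ± 2.32 FPKM (SD, n = 5 each), a log2 fold change of -0.61 with an SE of 0.12 (limma adjusted p = 0.0054). This call was kept whichever of the 10 libraries was left out, with adjusted p between 0.0042 and 0.0184, and under both other scalings.

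Egln3, another prolyl hydroxylase and itself a HIF target, was the most abundant of the 6 hypoxia genes. It read 231, 206, 142, 88.8 and 129 FPKM in WT libraries 1 to 5 and 139, 169, 96.6, 149 and 117 in knockout libraries 1 to 5. The WT libraries alone spanned the whole knockout range, and the difference was -0.20 on the log2 scale (SE 0.25, limma adjusted p = 0.64). FPKM is scaled to gene length, so genes can be set side by side only as far as those lengths match the transcripts made. The shares of FPKM given here and below carry that limit. Egln1 made up 21.5% ± 6.51 of the summed Egln1 and Egln3 FPKM in WT and 16.5% ± 2.13 in knockout (SD, n = 5 each), with overlap.

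The 3 remaining hypoxia members are textbook HIF targets, and none passed the test. Vegfa, the vessel growth factor, was at 11.0 ± 2.05 FPKM in WT and 8.38 ± 1.89 in knockout (SD, n = 5 each), a log2 fold change of -0.36 with an SE of 0.16 (limma adjusted p = 0.16). Bnip3, a mitophagy receptor, was at 20.7 ± 8.68 and 16.6 ± 3.63 FPKM (adjusted p = 0.62 in limma). Ankrd37 was at 10.4 ± 4.77 and 9.43 ± 4.97 FPKM (adjusted p = 0.79 in limma). Bnip3 and Ankrd37 spread widely within a group: Bnip3 ran from 9.26 in WT 4 to 33.5 in WT 2, and Ankrd37 from 5.56 to 17.8 in WT and from 4.12 to 15.1 in knockout. WT 4 was the lowest WT library in 4 of the 6 hypoxia genes, KO 3 the lowest knockout library in 3, and KO 2 the highest knockout library in 4. The median log2 fold change of the 6 was -0.21. By the test 1 was higher and 1 lower, or 33.3%, against 12.9% of all tested genes. With so few genes, chosen with earlier results of these data known, that share is no result about them.

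**Figure D2:**
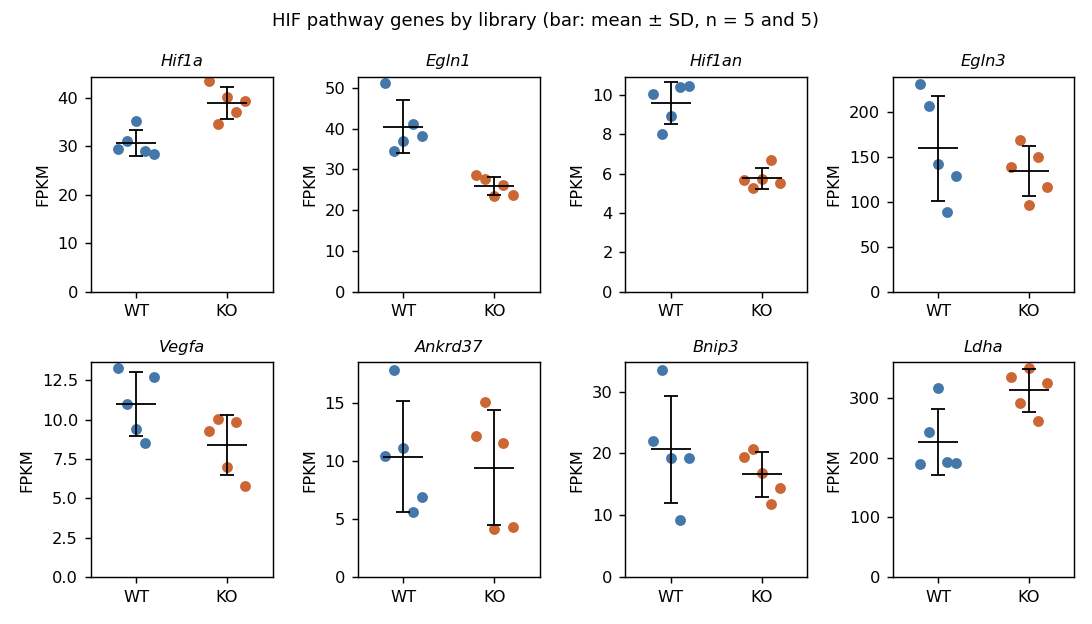
FPKM by library (points) with mean and SD (bars) in WT and knockout for Hif1a, Egln1, the added regulator Hif1an, Egln3, Vegfa, Ankrd37, Bnip3 and Ldha, each on its own axis from 0. Egln1 and Hif1an separate the groups, Hif1a nearly does, and Egln3, Ankrd37 and Bnip3 spread widely within both (Vegfa, Ankrd37 and Bnip3 were picked for the plot after their values were seen).

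Among 32 other genes of the hypoxia pathway, 28 were tested, of which 3 rose and 1 fell. That is 14.3%, near the 12.9% of all tested genes and so no result about the list, with a median log2 fold change of -0.07. The gene that fell is Hif1an, which encodes FIH, the asparaginyl hydroxylase that blocks the HIF coactivator site in oxygen. Hif1an read 10.1, 8.01, 8.91, 10.4 and 10.5 FPKM in WT libraries 1 to 5 and 5.66, 5.26, 5.71, 6.68 and 5.51 in knockout libraries 1 to 5, so the groups did not overlap. It fell by 39.7%, a log2 fold change of -0.64 with an SE of 0.10 (limma adjusted p = 0.0018), and kept its call with any 1 library left out. Ero1a, an oxidase of disulfide formation in the endoplasmic reticulum, rose from 12.1 ± 1.56 to 17.8 ± 2.05 FPKM (limma adjusted p = 0.0119), without overlap. Plod2, a collagen lysyl hydroxylase, rose from 0.858 ± 0.331 to 2.02 ± 0.546 FPKM (limma adjusted p = 0.0158). Wsb1, part of a ubiquitin ligase, rose from 11.4 ± 1.75 to 16.7 ± 2.89 FPKM (limma adjusted p = 0.0267), a call lost without WT 1, WT 3, KO 1 or KO 3 (adjusted p up to 0.0604) and with the replicate block (0.0604). Another 3 regulators, named after their values were seen, did not pass: Vhl, the ligase subunit that recognises hydroxylated HIF, at 7.12 and 5.51 FPKM, Epas1 (HIF-2 alpha) at 18.2 and 13.7, and the partner subunit Arnt at 8.00 and 8.23. Egln2, also named after its values were seen, was at 23.8 and 20.9 FPKM and did not pass either (limma adjusted p = 0.35).

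HIF-1 binds DNA at a short core, ACGTG or GCGTG, so the 250 bases before each annotated start were searched for both, on either strand. RefSeq (GRCm38.p6) held windows for 33 of the 34 members. ACGTG occurred in 23 of 50 member windows (46.0%), against 16.6% of 32851 windows of all genes, and GCGTG in 56.0% against 28.2%. Either core occurred in 82.0% of member windows and 38.6% of all windows. Both cores hold a CG, and the windows of all genes were not matched to the members in CG content, expression or windows per gene. Whether the higher shares have to do with HIF was not tested. Counted by gene, ACGTG was in at least 1 window of 57.6% of the 33 members, all 6 hypoxia members among them, of 12 of 24 other hypoxia genes and of 18.5% of all genes. For Vegfa the match lay only in the window of a downstream start, at chr17:46025164-46025413. The window of its upstream start, at chr17:46032378-46032627, held neither core. ACGTG lies inside the E-box CACGTG, which other factors bind and which counts on both strands, and a match of so few letters is a description of sequence, not a binding site. The windows of the 2 called hypoxia genes and of the most abundant member of the hypoxia and lactate groups are printed 5′ to 3′ on the gene's strand, with both cores and their reverse complements (CACGT and CACGC) in capitals. They are Hif1a at chr12:73907617-73907866 (plus strand), Egln1 at chr8:124949255-124949504 (minus), Egln3 at chr12:54203875-54204124 (minus) and the upstream start of Ldha at chr7:46845554-46845803 (plus).
Hif1a: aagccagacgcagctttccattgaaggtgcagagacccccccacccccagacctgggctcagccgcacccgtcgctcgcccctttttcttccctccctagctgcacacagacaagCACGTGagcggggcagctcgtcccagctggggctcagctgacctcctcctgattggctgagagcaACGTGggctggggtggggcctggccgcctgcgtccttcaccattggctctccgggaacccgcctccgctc
Egln1: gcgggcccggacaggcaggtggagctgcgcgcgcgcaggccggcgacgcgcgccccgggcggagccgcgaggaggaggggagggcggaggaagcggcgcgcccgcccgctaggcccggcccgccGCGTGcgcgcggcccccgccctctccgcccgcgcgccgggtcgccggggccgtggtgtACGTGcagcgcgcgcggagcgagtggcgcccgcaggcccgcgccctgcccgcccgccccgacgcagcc
Egln3: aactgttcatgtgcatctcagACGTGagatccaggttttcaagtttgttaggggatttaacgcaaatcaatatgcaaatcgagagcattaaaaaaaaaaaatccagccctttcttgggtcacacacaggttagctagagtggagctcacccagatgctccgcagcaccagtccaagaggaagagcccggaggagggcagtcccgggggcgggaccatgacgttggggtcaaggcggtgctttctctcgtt
Ldha: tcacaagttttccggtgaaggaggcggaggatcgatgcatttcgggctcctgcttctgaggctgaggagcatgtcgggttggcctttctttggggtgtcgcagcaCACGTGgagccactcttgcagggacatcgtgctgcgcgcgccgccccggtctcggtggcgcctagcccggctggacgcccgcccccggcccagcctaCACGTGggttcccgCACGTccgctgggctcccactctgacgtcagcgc
Egln1, which fell, has 1 match of each core, Hif1a, which rose, has 3 strand matches of ACGTG, Egln3 has 1 and Ldha has 5.

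Of the member glucose and lactate transporters, Slc2a1 and Slc16a1 were tested, and neither passed. Slc2a1, the glucose transporter GLUT1, was at 47.3, 34.4, 78.05, 49.7 and 61.6 FPKM in WT libraries 1 to 5 and at 48.7, 42.2, 77.1, 47.2 and 57.3 in knockout libraries 1 to 5. Library 3 was the highest and library 2 the lowest in both groups, and the means were 54.2 ± 16.5 and 54.5 ± 13.8 (SD, n = 5 each; log2 fold change 0.03, SE 0.21, limma adjusted p = 0.95). Slc16a1, the lactate carrier MCT1, was at 17.4, 22.05, 17.55, 24.9 and 17.8 FPKM in WT and at 23.8, 21.7, 25.2, 18.4 and 25.0 in knockout, in library order. WT 1, WT 3 and WT 5 lay below all 5 knockout libraries and WT 2 and WT 4 lay within them (log2 fold change 0.19, SE 0.13, limma adjusted p = 0.34). Slc2a3 (GLUT3) at 0.13 to 0.38 FPKM and Slc16a3 (MCT4) at 0.16 to 1.14 were too low to test, so that Slc2a1 held at least 99.4% of the FPKM of the glucose transporter pair in each library and Slc16a1 at least 95.7% of that of the lactate carrier pair. Outside the members, Slc2a4 (0.50 to 1.05 FPKM in WT, 0.08 to 0.31 in knockout) and Slc2a12 (0.36 to 1.49 and 0.18 to 0.32) were lower without overlap. Both were too low to test. Slc2a6, Slc2a8 and Slc2a9 overlapped, and Slc2a10 was at 0 in every library.

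In the upper, energy-using steps, 1 of 9 tested rows fell and none rose, or 11.1%, near the 12.9% of all tested genes. The median log2 fold change was 0.04. Pfkm encodes the muscle-type subunit of phosphofructokinase, the committed step of glycolysis. It was at 5.92, 5.50, 6.36, 6.61 and 6.54 FPKM in WT libraries 1 to 5 and at 4.44, 4.91, 4.64, 5.40 and 4.49 in knockout libraries 1 to 5, with the highest knockout just under the lowest WT. Pfkm fell by 22.8%, from 6.19 ± 0.468 to 4.78 ± 0.394 FPKM (SD, n = 5 each), a log2 fold change of -0.32 with an SE of 0.09 (limma adjusted p = 0.041). The call was lost without any 1 of 8 libraries (WT 1, WT 3, WT 4, WT 5, KO 1, KO 2, KO 3 or KO 5), with adjusted p up to 0.105, and with the replicate block it was 0.074.

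Pfkm was the smallest of the 3 phosphofructokinase genes, and its share of their summed FPKM was 16.6% ± 1.60 in WT and 12.4% ± 0.922 in knockout (SD, n = 5 each), without overlap. The liver-type Pfkl held 51.9% ± 2.79 and 56.5% ± 0.742, and the platelet-type Pfkp 31.5% ± 2.49 and 31.2% ± 0.909. These shares depend on gene length, which in GENCODE M21 exons is 13401 bases for Pfkp, 6675 for Pfkl and 3340 for Pfkm. By estimated fragments Pfkp was above Pfkl in each library, at 1983 to 2853 against 1696 to 2241. The order of these 2 genes is thus uncertain. The sum of the 3 genes was 37.4 ± 1.90 and 38.7 ± 1.03 FPKM, so the share of Pfkm was lower while the sum differed by less than 1 SD of the WT libraries. Of 14 skeletal muscle markers, Myh1, Myh2, Myh4, Pvalb, Tnnc2 and Ttn were at 0 in every library, and 11 stayed under 1 FPKM. The sum of the 14 was 5.02 to 6.71 FPKM in WT and 6.63 to 11.8 in knockout, mostly Tnni2 and Mylpf. Mylpf rose from 1.73 ± 0.442 to 2.99 ± 0.701 FPKM (SD, n = 5 each; limma adjusted p = 0.036), with overlap. Tnni2 did not pass (limma adjusted p = 0.14), and the rest were too low to test. The part of the 14 markers in the level of Pfkm was not tested. Pfkm lies on chromosome 15, as does Stk3, the gene of the null Mst2 allele, and any part of that in its level was not tested.

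The most abundant enzyme of the upper steps, Aldoa (aldolase A), was at 247, 212, 298, 265 and 258 FPKM in WT libraries 1 to 5 and at 233, 238, 335, 251 and 297 in knockout libraries 1 to 5. Both groups had their highest value in library 3 and their ranges overlapped widely (log2 fold change 0.08, SE 0.14, limma adjusted p = 0.75). Aldoa held 94.2% to 97.3% of the FPKM of Aldoa and Aldoc, and its second row, of another gene identifier, stayed at 0.18 to 1.08 FPKM. Tpi1, triosephosphate isomerase, was at 226 ± 47.0 FPKM in WT and 271 ± 28.0 in knockout (limma adjusted p = 0.23). The hexokinases Hk1 (20.7 to 36.1 FPKM over all libraries) and Hk2 (13.6 to 20.4), Gpi1 (32.8 to 52.4), Pfkl (17.5 to 22.3), Pfkp (10.5 to 12.95) and Aldoc (7.26 to 14.6) did not pass either. Hk1 made up 66.2% ± 5.10 of the hexokinase pair in WT and 64.5% ± 4.51 in knockout (SD, n = 5 each).

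In the lower, energy-yielding steps, 1 of 8 genes fell and none rose by the test, or 12.5%, near the 12.9% of all tested genes. The median log2 fold change was 0.21. Eno1, enolase of glycolysis, was at 42.3, 74.0, 77.9, 45.5 and 41.5 FPKM in WT libraries 1 to 5 and at 37.8, 31.5, 38.0, 29.3 and 34.3 in knockout libraries 1 to 5. The groups did not overlap, but WT 2 and WT 3 stood far above the other WT libraries, which lay only a little above the knockouts. Eno1 fell by 39.2%, from 56.2 ± 18.1 to 34.2 ± 3.82 FPKM (SD, n = 5 each), a log2 fold change of -0.65 with an SE of 0.19 (limma adjusted p = 0.040). The call was lost without WT 2 (adjusted p = 0.0644), WT 3 (0.0690) or any 1 knockout library (0.0592 to 0.0783).

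Eno1 has near copies in the genome, and the copy most like it rose. In the GENCODE M21 transcripts, 28.5% of its 31-base words occur in other genes, and 8 genes share at least 50 of them. The copies named here were chosen after their values were seen, as those that share the most. Eno1b, annotated as protein-coding and sharing 1509 words, was at 33.8, 8.43, 9.54, 41.3 and 35.0 FPKM in WT and at 92.8, 70.5, 92.3, 73.4 and 77.3 in knockout, in library order. It was low in WT 2 and WT 3, the libraries where Eno1 was high, and rose in the knockout (log2 fold change 1.89, SE 0.42, limma adjusted p = 0.0164). Gm4735, a processed pseudogene sharing 1139 words, was also lowest in WT 2 and WT 3, at 8.23 and 8.26 FPKM against 44.6 to 45.4 in the other WT libraries, and did not pass (limma adjusted p = 0.49). The 8 copies summed to 56.7 ± 35.9 FPKM in WT and 125 ± 30.0 in knockout (SD, n = 5 each). Eno1 and its copies together came to 113 ± 18.5 and 159 ± 31.7 FPKM, which is higher in knockout by a ratio of 1.41, with overlap. FPKM divides by the length of each gene, so such a sum depends on which copy a read was counted for. It is no count of enolase reads, and how much of the ratio comes from the lengths was not tested. Which reads belong to which copy cannot be told from the table, so the direction of enolase as a whole is uncertain.

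**Figure D3:**
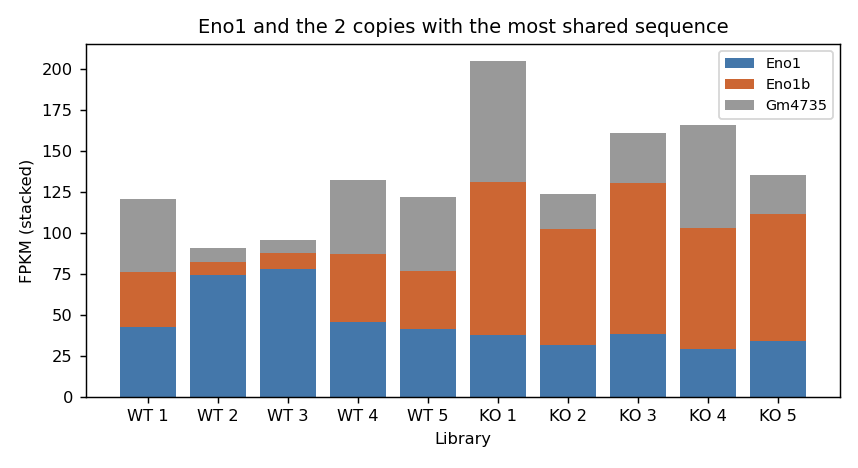
Stacked bars of FPKM in each library for Eno1 and its 2 copies with the most shared sequence. Eno1 is tallest and both copies are smallest in WT 2 and WT 3, and Eno1b exceeds 70 FPKM in all 5 knockout libraries.

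Ldha, the subunit of lactate dehydrogenase that favours lactate, was the most abundant gene of the lower steps. It was at 189, 244, 317, 193 and 191 FPKM in WT libraries 1 to 5 and at 335, 292, 351, 262 and 325 in knockout libraries 1 to 5. Of the WT libraries only WT 3 reached into the knockout range. The means were 226.5 ± 55.5 and 313 ± 35.8 FPKM (SD, n = 5 each), a log2 fold change of 0.49 (SE 0.16), and Ldha missed the threshold (limma adjusted p = 0.067). Without WT 3 it passed, at a log2 fold change of 0.62 (limma, adjusted p = 0.0174). Of 22 alternative settings, each library left out among them, it passed in 2. It did not pass under median-ratio scaling (0.42, limma adjusted p = 0.133) or quantile normalization (0.36, limma adjusted p = 0.105). Ldha made up 98.6% to 99.9% of the FPKM of Ldha and Ldhb in all libraries.

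Pkm, pyruvate kinase, Pgk1, phosphoglycerate kinase, and Gapdh, named because their unadjusted p was under 0.05, did not pass after adjustment. Pkm was at 164 ± 31.7 FPKM in WT and 217 ± 42.6 in knockout (SD, n = 5 each; limma adjusted p = 0.13). Pgk1 was at 24.4 ± 5.97 and 32.2 ± 6.07 FPKM (limma adjusted p = 0.15), and passed in 1 of 22 alternatives, without WT 2 (0.0469). Gapdh was listed at only 1.2 to 3.3 FPKM, against 212 to 335 for Aldoa, and 191 other genes share at least 50 of its 31-base words. Gapdh and those copies together came to 28.1 ± 1.75 FPKM in WT and 30.0 ± 3.53 in knockout (SD, n = 5 each), so the level of Gapdh itself is uncertain. Its values (limma adjusted p = 0.12, and 0.0426 without WT 4, the 1 of 21 alternatives in which it passed) are given for completeness. Pgam1 (18.0 to 29.3 FPKM), the muscle enolase Eno3 (1.07 to 2.74) and Ldhb (0.45 to 2.73) did not pass. At least 20.3% of the words of Pgk1, Pgam1, Pkm, Ldhb and Bnip3 also occur in other genes, up to 54.7% for Pgk1, and their levels carry the same limit.

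The PFKFB enzymes make and break fructose 2,6-bisphosphate, the activator of phosphofructokinase. None of the 3 passed the test, and their median log2 fold change was -0.13. Pfkfb4 was the most abundant, at 15.3, 13.4, 13.8, 9.49 and 15.7 FPKM in WT libraries 1 to 5 and 6.86, 10.35, 14.3, 13.95 and 12.4 in knockout libraries 1 to 5. Its groups overlapped over most of their range (log2 fold change -0.23, SE 0.19, limma adjusted p = 0.44). Pfkfb3, the isoform with the highest kinase activity, was at 1.53, 2.27, 2.96, 1.28 and 1.83 FPKM in WT and at 2.74, 2.41, 3.41, 3.39 and 3.23 in knockout, in library order. Only WT 3 reached the knockout range, and Pfkfb3 missed the threshold at a log2 fold change of 0.46 with an SE of 0.15 (limma adjusted p = 0.065). Without WT 3 it passed, at 0.57 (limma adjusted p = 0.0209), but in all it passed in only 2 of 21 alternatives. Its share of the FPKM of the 3 genes was 10.6% ± 3.21 in WT and 17.6% ± 2.12 in knockout (SD, n = 5 each), with overlap. Pfkfb2 lay at 2.20 to 3.93 FPKM over all libraries.

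At the branch from lactate to the mitochondria, none of 4 genes passed, with a median log2 fold change of 0.23. Pdha1, the catalytic alpha subunit of pyruvate dehydrogenase, was at 43.1, 63.4, 44.3, 52.5 and 39.6 FPKM in WT libraries 1 to 5 and at 67.1, 65.9, 49.5, 50.9 and 50.1 in knockout libraries 1 to 5. KO 3, KO 4 and KO 5 lay between the WT values (log2 fold change 0.23, SE 0.15, limma adjusted p = 0.33). Pdk1, a kinase that switches the enzyme off and a known HIF-1 target, was at 7.81, 8.48, 6.28, 6.62 and 7.0 FPKM in WT and at 9.20, 9.45, 9.31, 8.06 and 8.54 in knockout, in library order. Only WT 2 reached into the knockout range (log2 fold change 0.27, SE 0.10, limma adjusted p = 0.088), and without it Pdk1 passed (0.0375). In all, Pdk1 passed in only 2 of 22 alternatives. The kinases Pdk2 (0.57 to 1.66 FPKM) and Pdk4 (3.31 to 10.6) did not pass, and Pdk1 made up 49.5% ± 9.49 of the FPKM of the 3 kinases in WT and 51.7% ± 7.69 in knockout (SD, n = 5 each).

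**Figure D4:**
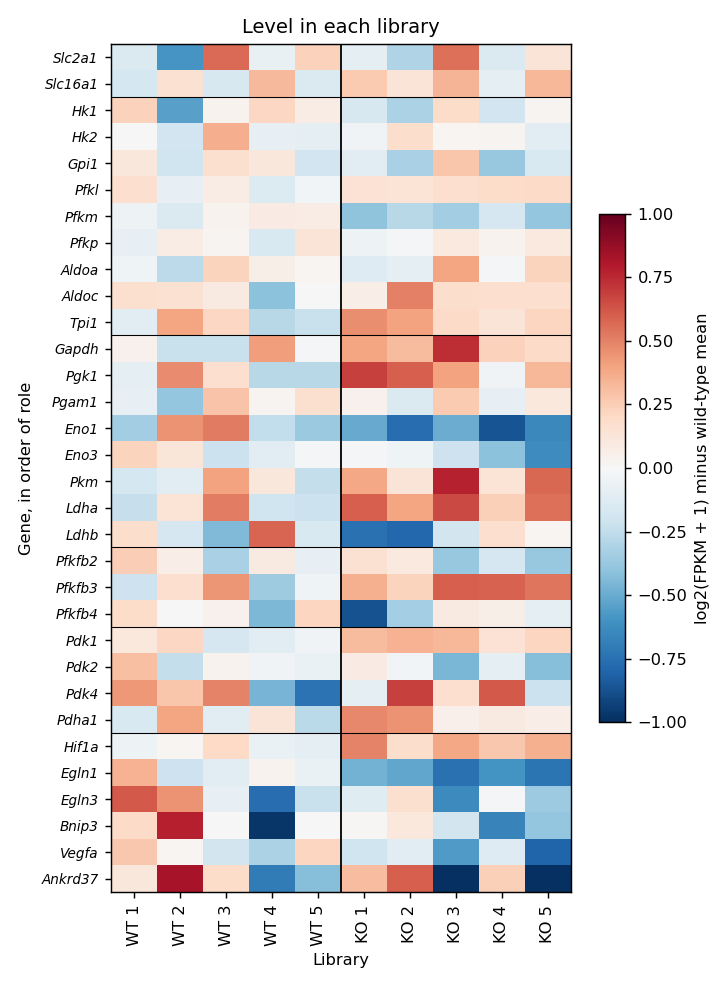
Difference of log2(FPKM + 1) from the WT mean (colour, from -1 to 1, with 2 values of Ankrd37 beyond the scale) for the 32 tested rows in each library, in order of role. Egln1, Eno1 and Pfkm are blue in all 5 knockout libraries, while Slc2a1 is red in library 3 of both groups.

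Of 40 other genes of glycolysis and pyruvate use, 23 were tested, of which 4 rose and 1 fell. That is 21.7%, against 12.9% of all tested genes (7.9% higher and 4.96% lower), with a median log2 fold change of 0.07. The list is short and was chosen with earlier results of these data known, so its share is no result about the list. Pgm2, a phosphoglucomutase family member, rose from 6.01 ± 1.33 to 9.76 ± 0.947 FPKM (SD, n = 5 each; log2 fold change 0.63, SE 0.13, limma adjusted p = 0.0095). Gpd2, the mitochondrial glycerol phosphate dehydrogenase, rose from 12.9 ± 2.80 to 22.9 ± 4.65 FPKM (limma adjusted p = 0.0113). Pdhx, which anchors a subunit in the pyruvate dehydrogenase complex, rose from 3.95 ± 0.534 to 5.89 ± 0.593 FPKM (limma adjusted p = 0.0121), while its partner Pdha1 did not pass. Bpgm, bisphosphoglycerate mutase, fell by 35.6%, from 17.4 ± 3.55 to 11.2 ± 1.39 FPKM (limma adjusted p = 0.0156). Tigar, a phosphatase that lowers fructose 2,6-bisphosphate, rose from 3.41 ± 0.437 to 4.70 ± 0.588 FPKM (limma adjusted p = 0.0432). The Tigar call was lost without any 1 library except WT 4 and KO 4 (adjusted p up to 0.0989), under median-ratio scaling and with the replicate block (0.0895). The groups did not overlap for Pgm2, Pdhx and Bpgm.

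**Figure D5:**
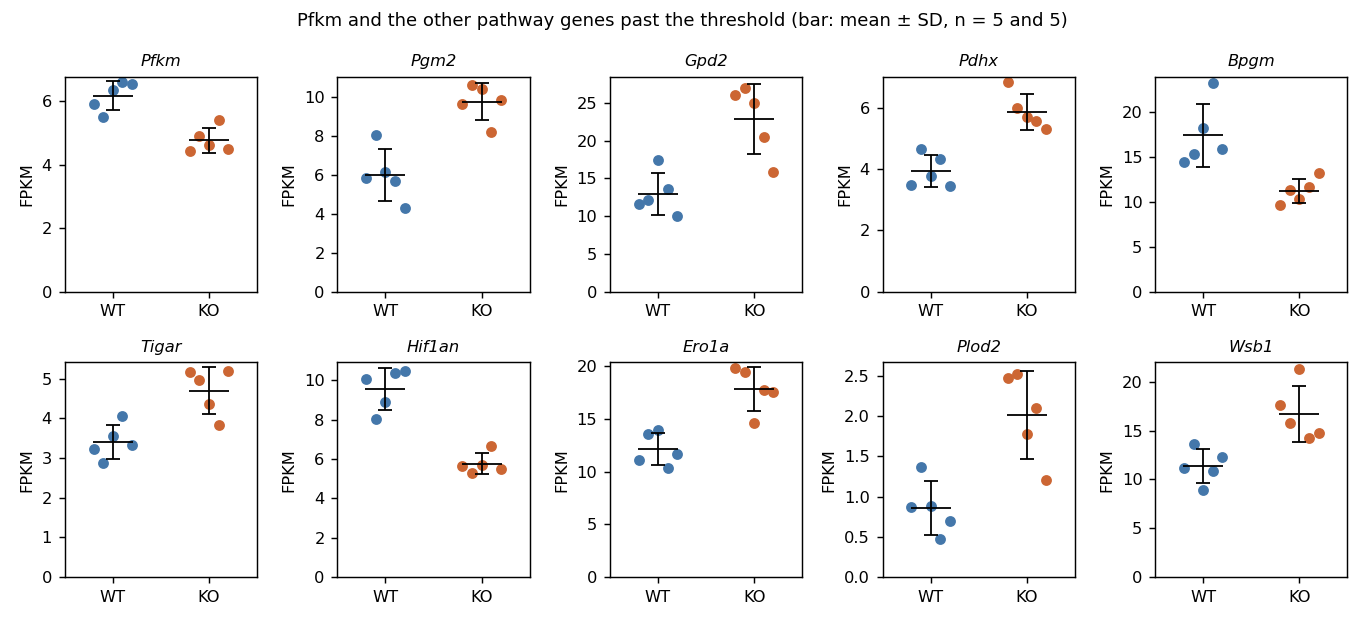
FPKM by library (points) with mean and SD (bars) in WT and knockout for Pfkm and for the 9 other pathway genes past the threshold, each on its own axis from 0. Pfkm, Bpgm and Hif1an are lower in knockout and the other 7 are higher, with some overlap for Gpd2, Tigar and Plod2.

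The libraries also differed in the clock-output gene Dbp, which was above 5 FPKM in WT 1, WT 2, WT 4, KO 1 and KO 2 (8.45 to 22.6) and at 0.38 to 1.73 in the other 5. With the level of clock-output genes as a covariate, Egln1 (limma adjusted p = 0.017) and Eno1 (0.0469) kept their calls, while Hif1a (0.0843) and Pfkm (0.0503) lost them. Values were also taken within each Dbp class, which was set after the data were seen. Within the high class the log2 fold changes of the called members were 0.37 for Hif1a, -0.55 for Egln1, -0.30 for Pfkm and -0.58 for Eno1. Within the low class they were 0.29, -0.61, -0.35 and -0.74, in the same order, from at most 3 libraries a group. Only Egln1 in the low class passed the test there (limma adjusted p = 0.040). Dcn separates the groups as the genotype does, so what moves with it cannot be told apart from genotype. With the skeletal muscle or the stromal marker score as a covariate, none of the 4 members kept its call (limma adjusted p = 0.105 for Egln1 with the muscle score), and both scores differ between the groups without overlap.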

How the data were processed

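RNA of esophageal epithelium, freed of muscle and mesenchyme with forceps and Dispase, was sequenced as paired ends, per the labels. The authors deposited 1 table of FPKM values per gene and library. The submitters' processing notes name cutadapt, HISAT2 2.0.1, HTSeq 0.6.1 and mm9, with no settings. The handling of reads that match several genes is not given in the sources used here and bears on Eno1, Gapdh and other members with copies. The members and gene lists were chosen with earlier results of these data known.

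The FPKM values were tested as log2(FPKM + 1) with limma 3.58.1 in R 4.3.3 (trend and robust estimation) over genes of at least 1 FPKM in at least 5 libraries. A gene is called at a Benjamini-Hochberg adjusted p under 0.05. The script was tested on simulated data. Depth was estimated as the total that makes the FPKM of single-exon genes of at most 1200 bases come out as whole fragments, within 0.01 of a fragment beyond rounding. It did so for 90.2% to 97.8% of 1951 to 2296 genes per library, against 9.01% to 9.67% at other totals. By it, Gapdh rested on 72 to 189 fragments, Pfkm on 194 to 359, Egln1 on 1169 to 2778 and Hif1a on 2485 to 3500.

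Values in every library are given for called members and, per role, for the member with the highest mean and that with the smallest p. From the other pathway lists the called genes are named, at most 5 a list. Shared sequence was counted as 31-base words of GENCODE M21 transcripts. Python 3.11.15 with pandas 2.3.3 and matplotlib 3.10.9 was used for descriptions and figures. The 22 alternatives took in other pseudocounts (0.1 and 5), filters, scalings, weights, a replicate block, 3 covariates and each library left out. Chromosome positions are those of RefSeq GRCm38.p6, not of the build of the table.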

Additional observations from a re-analysis of the deposited data

Results flagged for a closer look

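Of 82 groups of 5 libraries looked at, 1 held a library set apart from the other 4 by Dixon's test, or 1.22%, where chance gives about 1 in 20. Aldoc, the brain-type aldolase, was at 14.57 FPKM in knockout library 2, against 10.5 to 11.4 in the other 4 knockout libraries.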

How the results depend on the processing

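Egln1 kept its call in 20 of 22 alternatives, Eno1 in 12, Pfkm in 9 and Hif1a in 8, and 6 of the 28 uncalled members passed in at least 1. Without a filter on low values, 0 members rose and 1 fell (Hif1a, Pfkm and Eno1 lost their calls), 511 of all genes rose, and 2 other glycolysis genes fell. With a filter at 5 FPKM, 329 of all genes fell. Median-ratio scaling left 0 members higher, with Slc2a1 at -0.041 (log2). Quantile normalization left 0 higher, with a member median of -0.056, Slc2a1 at -0.089 and Aldoa at -0.0535. The median over all genes moved from 0.06 to -0.0007 and 0.0087 under these scalings, and the higher share of calls from 61.4% to 46.6% and 47.9%. With sample quality weights 4 members rose, as did 1390 of all genes, 2 other hypoxia genes fell, and Slc2a1 was at -0.079. The clock covariate left 0 members higher, 2 other glycolysis genes lower, Slc2a1 at -0.21 and Aldoa at -0.055.

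The marker covariates nearly track genotype. With the skeletal muscle one, 0 members rose and 1 fell, which was Vegfa (-0.99, adjusted p = 0.0452, against -0.36 without it), while Egln1 lost its call. Of all genes, 132 rose and 126 fell, 0 genes of both other lists passed in either direction, and Pdha1 was at -0.078. With the stromal one, 0 members rose or fell, 17 of all genes rose and 18 fell, and 0 of the other lists passed. The member median was then -0.16, with Slc2a1 at -0.36, Aldoa at -0.13, Pdha1 at -0.0056, Pkm at -0.23, Pgk1 at -0.56, Ldha at -0.34 and Pgm2 at -0.02. The cause of these shifts was not tested.

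Leaving out 1 library at a time gave 0 to 3 members higher and 1 to 2 lower, 436 to 1091 of all genes higher and 357 to 679 lower, 1 to 2 other glycolysis genes lower and 1 to 2 other hypoxia genes lower. Slc2a1 ranged from -0.12 to 0.17 and Aldoa from -0.0042 to 0.13. With the replicate number as a block, 0 members rose, since Hif1a was lost, as were Pfkm, Tigar and Wsb1. Same-numbered libraries gave correlations of deviations of 0.061, 0.423, 0.194, -0.241 and 0.107, with 3 of 5 over 0.1. As neither the labels nor every pair tie the numbers to shared animals or days, the libraries were treated as unpaired, which does not exclude a partial pairing, and 1 of 5 WT libraries correlated best with its own number. The comparison of isozyme proteins was not run.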
